A study of Danio rerio with 16 samples.

Results

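The comparison described here sets zebrafish embryos injected with polystyrene particles against embryos injected with the vehicle alone, both taken 3 days post injection (dpi), and asks which transcripts differ once injection and vehicle are common to both groups. Libraries were chosen by their titles: 3 particle libraries (A, B and C) and 2 mock libraries (A and B), 5 of the 16 libraries of the series. The other 11 are non-injected embryos at 3 dpi (3 libraries) and all 3 treatments at 1 dpi (8 libraries). All embryos were wildtype Danio rerio kept in egg water. Particle embryos received into the yolk, at 2 days post fertilization, 1 nl of red fluorescent polystyrene beads at 5 mg/ml in polyvinylpyrrolidone (PVP). Mock embryos received PVP only, at a volume the labels do not give for them separately, and non-injected embryos received nothing. RNA came from whole animals at 5 days post fertilization, with 10 embryos pooled per treatment group, and the labels call the libraries of a group biological replicas. P-values therefore measure the spread between pools. In the main fit that spread was estimated over all 16 libraries of the 6 groups, not over the 5 compared libraries alone. Each library is 1 pool of whole embryos, so fewer cells of a type and less RNA per cell cannot be told apart.

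The yolk is the embryo's only food store in its first days and is broken down by the yolk syncytial layer, which passes lipid and amino acids to the blood. Matter that leaves the yolk or the vessels is taken up by macrophages and by scavenger endothelial cells. In these days the liver, exocrine pancreas and gut begin to work, pigment cells fill with melanin, cartilage forms and red cells load hemoglobin.

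The 5 libraries held between 8679739 and 18187009 counts. Both mock libraries stood apart from the other 14 in composition. They had 25741 and 25785 genes with at least 1 count against 26158 to 27363 elsewhere, their 100 most abundant genes took 38.8% and 32% of counts against 19.9% to 31.4%, and mitochondrially encoded transcripts took 5.48% and 6.13% against 2.85% to 5.02%. The labels give bead size as 700 nm for all particle libraries, while the file headers of particle C at 1 and 3 dpi read 70 nm. The headers of all C libraries, particle and non-injected, call them combined, and mock has no C library. The number of genes called with the A and B libraries alone, which leave all C libraries out, is therefore given too, with some list counts.

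With both mock libraries as the reference, 1249 of 23623 genes tested were higher in particle embryos (5.29%) and 803 were lower (3.4%), by edgeR's quasi-likelihood test with a Benjamini-Hochberg adjusted p under 0.05. At an unadjusted p under 0.05 the test passed 6519 genes. All 3 particle libraries lay above both mock libraries for 5358 genes (22.7%) and below both for 4809 (20.4%), called or not. Genes called higher had a median level of 7.98 CPM (a gene's counts scaled to a common library size), against 9.84 CPM over all genes tested. Their median log2 difference was 1.37 in size, and 996 of them differed by at least 1 on the log2 scale. Genes called lower were more abundant, with a median of 37.3 CPM, and moved less, with a median size of 0.83, and 217 of them differed by at least 1. When all genes were split by level into 5 equal classes, the median log2 difference went from 0.36 in the lowest class to -0.21 in the highest, and the share called lower from 0.55% to 8.4%. This tilt with level ran alongside the mock libraries' concentration of counts in fewer genes, and the part of library composition in the calls was not tested beyond the following values. After quantile normalization, which gives every library the same distribution of levels and was chosen after seeing the data, limma-voom called 533 genes higher and 386 lower. On that scale the median log2 difference was -0.12 in the lowest class and -0.02 in the highest, without the tilt. Without quantile normalization limma-voom called 856 genes higher and 599 lower. In the main fit the share called higher was 7.73% in the second class and 8.17% in the third. Shares over all genes, set beside list counts below, are not matched for level.

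Each mock library on its own gave a very different count. Against mock A alone, 2344 of 24086 genes were higher (9.73%) and 1567 lower (6.51%). Against mock B alone, 1 of 24119 genes was higher and 1 lower (0.00415% each), although 2987 genes passed an unadjusted p under 0.05 and DESeq2 called 164. The median size of the log2 difference over all genes was 0.56 against mock A and 0.36 against mock B. In both single-library tests the lone mock library was assumed to vary like the libraries of the other groups. A fit to the 3 dpi libraries alone called 7 genes higher and 1 lower, and a fit to the 5 libraries called 0 genes in edgeR, with 5196 at an unadjusted p under 0.05. With the A and B libraries alone, 2986 of 23212 genes were higher (12.9%) and 2693 lower (11.6%). Leaving out particle B left 64 calls and leaving out particle A left 317. The number of calls thus changed with the mock library used, with particle A or B left out, and with which libraries set the spread. Leaving a library out also makes its group smaller, and the part of group size was not tested.

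**Figure D1:**
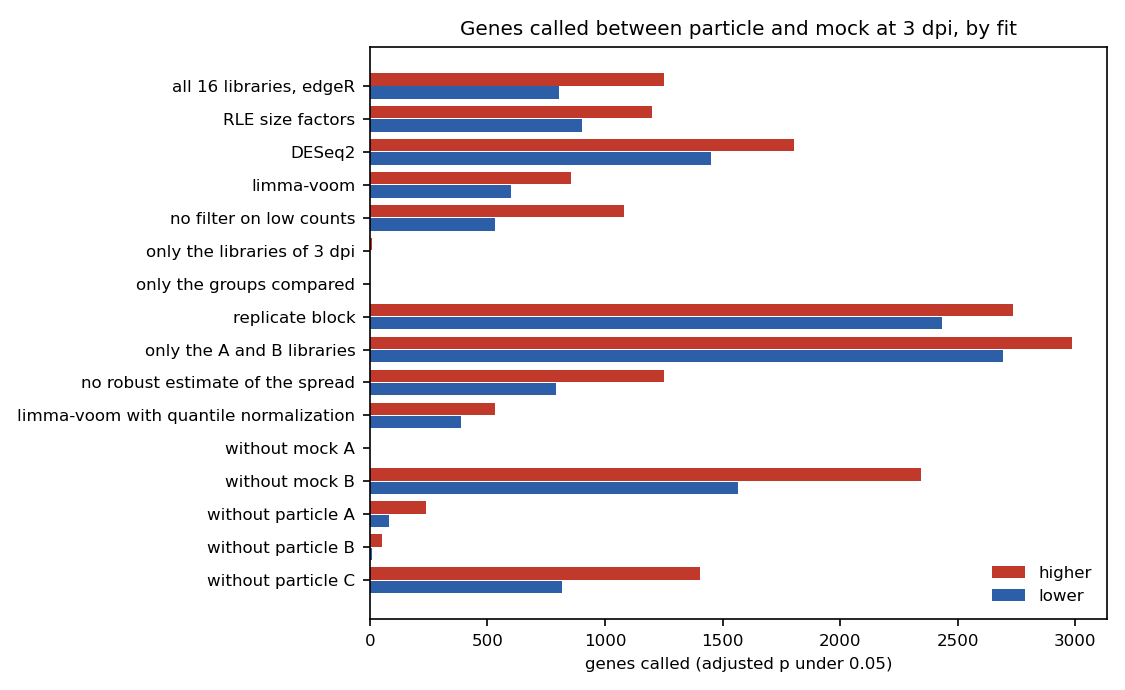
Horizontal bars give the number of genes called higher (red) and lower (blue) with particles in each fit, at an adjusted p under 0.05, with the axis starting at 0. Without mock A 2 genes were called, without mock B 3911, and in the fit over all 16 libraries 2052.

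Non-injected embryos of the same age are a further reference that shares its libraries with neither group. Particle against non-injected embryos gave 0 called genes in edgeR, with 363 at an unadjusted p under 0.05, and a median size of the log2 difference of 0.15. Mock against non-injected embryos gave 103 genes higher in mock (0.436%) and 283 lower (1.2%), with a median size of 0.37. These comparisons share the particle or the mock libraries with the main one, so their values below are given side by side only.

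**Figure D2:**
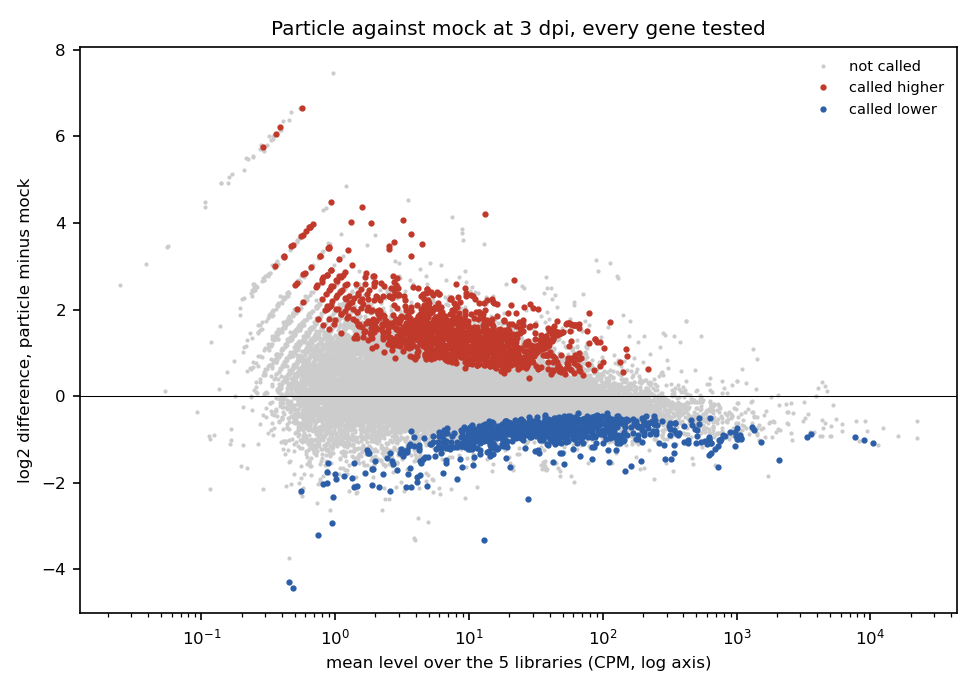
Each point is a gene; the x axis is its mean level over the 5 libraries (CPM, log axis) and the y axis the log2 difference, particle minus mock. The 1249 genes called higher (red) lie mainly at low and middle levels and the 803 called lower (blue) reach the highest levels.

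A single gene of 23623 (0.00423%), pvalb5, was called with the same sign against both mock libraries together and against each alone. It is ENSDARG00000032836 on chromosome 3 of GRCz10 and encodes a parvalbumin, a calcium-binding protein. In particle A, B and C, the order used for all values below, it stood at 42.9, 42.3 and 43.9 CPM. In mock A and B it stood at 15.1 and 5.86 CPM and in the non-injected libraries at 36.9, 33.8 and 34.1 CPM. Mock B was the lowest of the 8 libraries and mock A the next. The particle mean was 43.1 ± 0.807 (SD, n = 3) CPM and the mock mean 10.5 ± 6.56 (SD, n = 2) CPM, a log2 difference of 2.03 (SE 0.34, adjusted p = 0.0123). The difference was 1.52 against mock A and 2.87 against mock B (adjusted p = 0.00856 and 0.045). The other gene called against mock B alone has no proper symbol (ENSDARG00000086724, chromosome 6) and was chosen after its values were seen. It stood at 5.99, 5.93 and 5.84 CPM with particles and at 9.14 and 26.7 CPM in mock. Both mock libraries lay above every particle library, mock B by far the most (log2 difference -2.18 against mock B and -0.62 against mock A).

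The 10 genes highest over the nearer mock library included transporters, receptors and signalling proteins. The farthest apart was slc4a1a, the anion exchanger of the red cell membrane (ENSDARG00000012881, chromosome 3), at 37.2, 29.1 and 32.8 CPM with particles and 5.33 and 4.95 CPM in mock. The non-injected libraries lay between, at 19.4, 14 and 22.9 CPM, and no library of the 3 groups overlapped another group. The log2 difference was 2.68 (SE 0.58, adjusted p = 0.021). For tyr, tyrosinase, the enzyme that starts melanin synthesis, levels were 8.11, 10.2 and 4.61 CPM against 1.42 and 1.43 CPM, a difference of 2.41 (SE 0.39, adjusted p = 0.0123). Both mock libraries held tyr at nearly one level, while the particle libraries spread over a wide range that took in the highest non-injected library, at 4.99 CPM. Another anion exchanger, slc4a2b, stood at 10.4, 8.34 and 4.87 CPM against 1.52 and 1.56 CPM (difference 2.34).

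Among signalling genes, kras, the small GTPase at the head of the MAPK cascade, stood at 12.1, 17 and 10.5 CPM with particles and 3.16 and 4.04 CPM in mock, a difference of 1.88 (SE 0.24, adjusted p = 0.00903). Its non-injected libraries held 11.5, 12.2 and 11.4 CPM, inside the particle range. The kinase rps6ka5, which acts on chromatin downstream of MAPK, stood at 8.67, 8.51 and 9.1 CPM against 1.09 and 2.34 CPM (difference 2.37). For acvr1bb, an activin receptor, mock A at 0.653 CPM lay far under mock B at 3.38 CPM, and the particle libraries stood at 14, 13.4 and 8.46 CPM (difference 2.6, 4.18 against mock A and 1.81 against mock B). The amino acid carrier slc7a5 had the same shape, at 17, 15 and 10.1 CPM with particles and 1.2 and 4.3 CPM in mock. The rest were pcdh20, a protocadherin, stx11b.1, a syntaxin, and col6a1, described below. Over the 10 genes the fitted difference ran from 1.88 to 2.68. The plain difference in log2 CPM between the particle mean and each mock library, by which the genes were ranked, ran from 1.81 to 3.89 for mock A and from 1.64 to 2.70 for mock B. In particle against non-injected embryos the same genes ran from -0.06 to 0.81, and for 10 of 10 every non-injected library lay above both mock libraries. The 10 were picked for mock libraries far below the particle libraries, and the share of all genes with this order was not computed.

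The 10 genes lowest against the nearer mock library were led by mmp9, the secreted gelatinase of leukocytes and wounds (ENSDARG00000042816, chromosome 8). It stood at 7.62, 5.93 and 17.6 CPM with particles and 73.6 and 34 CPM in mock, with 5.12, 4.58 and 12.8 CPM in the non-injected libraries. Particle C was the highest of its group and mock A the highest of all, and the particle and mock groups did not overlap. The difference was -2.36 (SE 0.51, adjusted p = 0.0202), with -2.81 against mock A and -1.7 against mock B. The arrestin-domain gene arrdc3b had tighter libraries, at 69, 62.4 and 59 CPM against 201 and 161 CPM, a difference of -1.51 (SE 0.20, adjusted p = 0.00903). The autophagy-related kinase gene ulk3 stood at 11.6, 13.1 and 12.5 CPM against 27.5 and 27.5 CPM, with both mock libraries at one level (difference -1.15). The groups were as clearly apart for ccdc24, a coiled-coil protein gene, at 26, 31.3 and 33.2 CPM against 83.6 and 67 CPM. The remaining genes were lrrcc1, a centrosomal protein, abhd8b, a hydrolase, rln3a, a relaxin, ogfod2, an oxygenase, and the linker histones histh1l and h1f0. For 10 of 10, every non-injected library lay below both mock libraries. These genes were picked for mock libraries far above the particle libraries, and the share of all genes with this order was not computed.

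**Figure D3:**
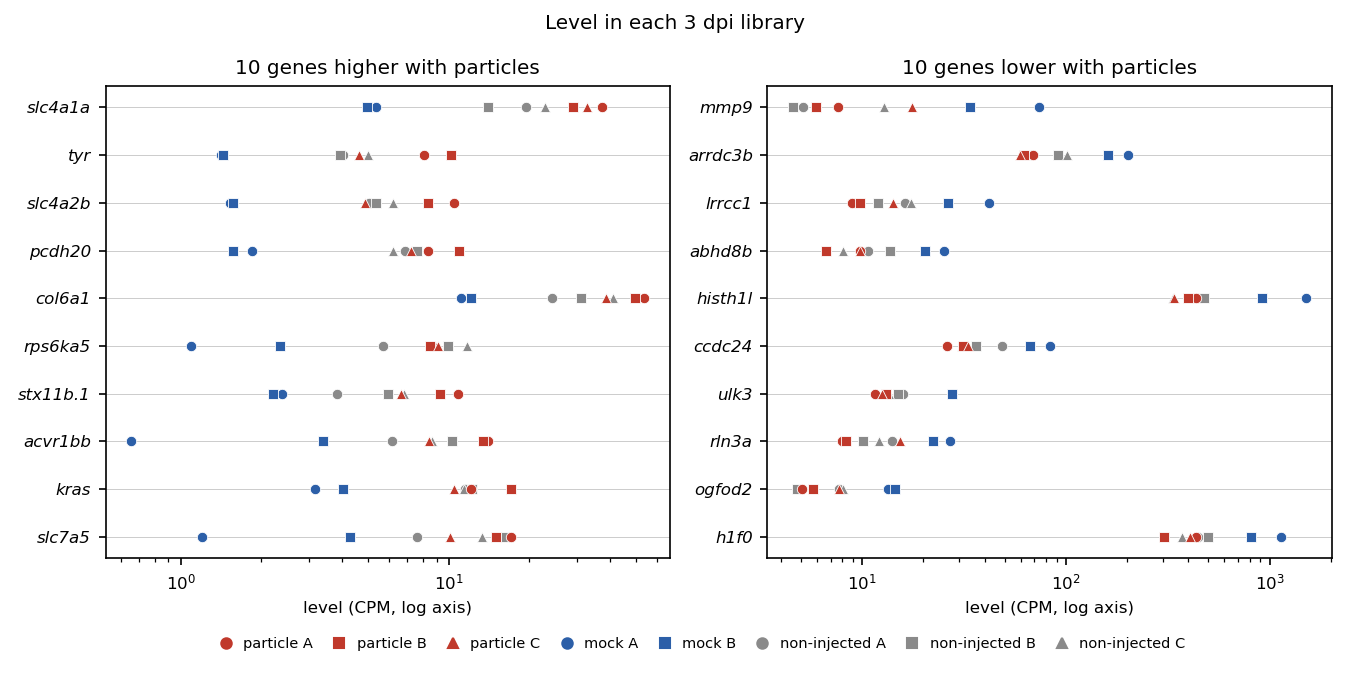
Points give the level (CPM, log axis) of the 10 highest-ranked genes called higher (left) and lower (right) in each 3 dpi library, red for particle, blue for mock and grey for non-injected, with a shape per replicate letter. Both mock points of every gene sit outside the range of the particle points, and the non-injected points lie on the particle side.

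Of 78 tested genes for cytosolic ribosomal proteins, which with translation factors make up the machinery of protein synthesis, 28 were called lower and 0 higher, against the 3.4% called lower over all genes, and their median log2 difference was -0.86 against 0.03 for all genes. The median was -1.26 against mock A, where 74 were called lower, and -0.33 against mock B. Summed over the list, ribosomal protein transcripts took 50256, 46235 and 54335 CPM with particles, 119626 and 63035 CPM in mock and 56447, 59218 and 45906 CPM in non-injected embryos, so mock A stood far above the other 7 libraries. The large-subunit gene rpl35a stood at 403, 377 and 441 CPM against 1064 and 610.3 CPM (difference -1.04, SE 0.25, adjusted p = 0.0272). The small-subunit gene rps27.2 stood at 369, 348 and 418 CPM against 1016 and 548 CPM (difference -1.05). After quantile normalization the median of the list was -0.26 and 0 of 78 genes were called. That fit differed from the main one in both test and scaling, and the part of each was not tested. Reads of these genes may be shared with processed copies. Of all genes in the highest level class, 8.4% were called lower, against 3.4% over all genes. Of 38 translation factors 1 was called lower, eif2s1b, a subunit of the initiation factor that the integrated stress response acts on, at 104, 98.6 and 105 CPM against 211 and 125 CPM. It was not called by limma-voom, with or without quantile normalization, and 1 other member of that list was called higher after quantile normalization. Of 47 ribosome biogenesis genes 0 were called, with a median of -0.31, and fbl, fibrillarin, stood at 38.5, 51.8 and 60.5 CPM against 62.5 and 51.5 CPM.

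Energy and protein turnover genes lay the same way. Their counts are also to be read against the 8.4% called lower in the highest level class. Of 66 nuclear genes for the respiratory chain 19 were lower and 0 higher, against 3.4% called lower over all genes, with a median of -0.63 (-0.90 against mock A, -0.28 against mock B, -0.39 after quantile normalization, where 2 were called). The complex I subunit gene ndufa6 stood at 47.1, 51.1 and 68.8 CPM against 151 and 99.1 CPM, a difference of -1.17 (SE 0.21, adjusted p = 0.0131), and ndufb3, of the same complex, at 36.3, 39.3 and 57.2 CPM against 115 and 72.5 CPM. In both genes particle C lay nearest to mock B. Of 13 transcripts of the mitochondrial genome 3 were lower, with a median of -0.62, and -0.08 after quantile normalization with 0 called. The oxidase subunit mt-co3 stood at 5833, 6598 and 6685 CPM against 14631 and 10869 CPM (difference -1.0, SE 0.23, adjusted p = 0.0238). Of 38 proteasome subunit genes 6 were lower and 0 higher, against 3.4% called lower over all genes, with a median of -0.46. After quantile normalization 1 was lower and the median was -0.33. The core subunit gene psma1 stood at 49.7, 48 and 52.5 CPM against 111 and 72.1 CPM (difference -0.87), -1.14 against mock A and -0.53 against mock B.

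Of 15 linker and replication-dependent histone genes 5 were lower and 0 higher, against 3.4% called lower over all genes, with a median of -0.65. Histone genes have near-identical copies, so their counts are uncertain. Of all genes in the highest level class, 8.4% were called lower. The linker histone gene histh1l (ENSDARG00000035519, chromosome 5) stood at 435, 399.7 and 339 CPM against 1517 and 917 CPM, with non-injected libraries at 458, 477 and 335 CPM (difference -1.64, SE 0.27, adjusted p = 0.0123). The linker histone genes h1f0 and h1fx differed by -1.35 and -1.24. After quantile normalization 4 of the 15 were called. Genes of DNA replication and mitosis had 0 of 67 called in the main fit and a median of -0.11. With the A and B libraries alone 9 of the 67 were lower, against 11.6% of all genes in that fit. The replication clamp gene pcna stood at 79.4, 129 and 187 CPM with particles and 164 and 142 CPM in mock, with overlapping groups. Of 70 sarcomere genes 1 was lower, mylpfa, a myosin light chain of fast muscle, at 6913, 7287 and 7457 CPM against 18597 and 12114 CPM. The list's median was -0.34 (-0.60 against mock A, -0.01 against mock B). After quantile normalization the median was -0.03 with 0 called, and mylpfa differed by -0.13.

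Red cell genes lay the other way. All 7 globin genes tested had a positive log2 difference, with a median of 1.38 (1.18 against mock A, 1.65 against mock B, 1.51 after quantile normalization), but 0 passed the adjusted test in the main fit. The alpha globin gene hbae1 stood at 637, 527 and 578 CPM with particles, 206 and 142 CPM in mock and 488, 356 and 416 CPM in non-injected embryos. The difference was 1.74 (SE 0.51, adjusted p = 0.0521), with particle libraries above both mock libraries. The gene hbae1 was called by DESeq2, by limma-voom with and without quantile normalization, and in fits to the 3 dpi or the A and B libraries. It was not called in the fit to the 5 libraries compared, which called 0 genes. With the A and B libraries alone 4 of the 7 globins were called higher, against 12.9% of all genes, and after quantile normalization 1 was. In 6 of 7 globins all particle libraries lay above both mock libraries, against 22.7% of all genes. Globin genes share sequence, so their split between copies is uncertain. Of 33 genes of the red cell membrane, heme synthesis and iron uptake, 4 were higher and 2 lower, against 5.29% and 3.4% over all genes. Higher were slc4a1a, ank1b, an ankyrin of the membrane skeleton, tfr1a, a transferrin receptor, and urod, a heme synthesis enzyme. For tfr1a the levels were 4.87, 8.17 and 2.89 CPM against 1.2 and 1.3 CPM (difference 2.07, adjusted p = 0.0174). For urod they were 3.6, 5.33 and 5.14 CPM against 1.96 and 1.95 CPM (difference 1.26). Neither gene was called after quantile normalization, where 2 of the 33 were higher and 1 lower. The gene tfr1a was not called by limma-voom without quantile normalization either. Lower in the main fit were slc25a38a, a mitochondrial glycine carrier, and tal1, a blood and vessel transcription factor, at 23, 25 and 38.5 CPM against 50.3 and 49.9 CPM (difference -0.79).

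**Figure D4:**
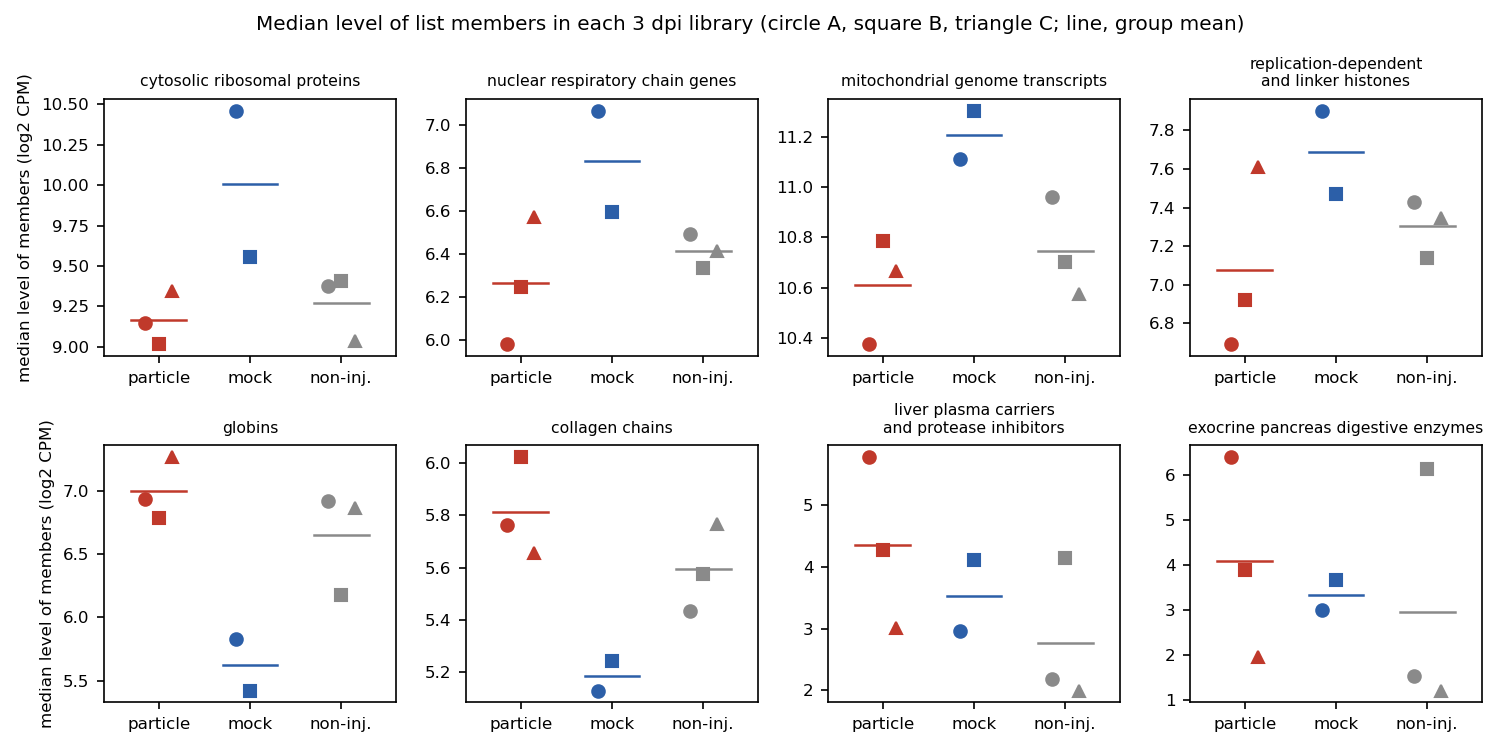
Each panel gives the median level of a list's members (log2 CPM, separate axes that do not start at 0) in each 3 dpi library, with circle, square and triangle for A, B and C and a line at the group mean. Globins and collagens lie lower in both mock libraries than in all 3 particle libraries, while liver and pancreas lists spread within the particle group more widely than between groups.

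Several organ lists had large medians and particle libraries that differed widely among themselves. Exocrine pancreas enzymes had a median difference of 2.32 over 19 genes and 0 called. Trypsinogen, try, stood at 547, 91.9 and 30.8 CPM with particles, 45 and 88 CPM in mock and 26, 279 and 19.5 CPM in non-injected embryos, so particle A and non-injected B stood high and particle C stood below both mock libraries. Its difference was 1.75 (SE 1.26, adjusted p = 0.391), and without particle A it turned to -0.11. Liver plasma carriers and protease inhibitors had a median of 1.12 over 33 genes, with 0 called, 2.05 against mock A and 0.49 against mock B. Transferrin, tfa, stood at 311, 215 and 73.9 CPM against 24.7 and 83.7 CPM (difference 1.89, SE 1.11), with particle C below mock B. Complement genes had 0 of 27 called and a median of 0.73, and c3a.1, a gene for the central component C3, stood at 64.2, 26.7 and 14.5 CPM against 8.16 and 14.6 CPM. The summed level of 3 liver markers was 1179, 582 and 248 CPM with particles and 159 and 585 CPM in mock. Because tfa is among these markers, the sum is no separate measure of the amount of liver. The part of liver and pancreas growth in these values was not tested. Intestinal genes (0 of 21 called, median 0.62) and heart chamber genes (0 of 19, median 0.71) had the same spread: fabp2, an enterocyte lipid-binding protein, stood at 188, 199 and 83.3 CPM against 45.3 and 130.3 CPM, and myl7, a cardiac myosin light chain, at 10.9, 4.82 and 1.5 CPM against 0.544 and 2.21 CPM.

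Of 22 fibrinogen and clotting genes 2 were higher and 0 lower, against 5.29% and 3.4% over all genes. After quantile normalization 1 was higher and 1 lower. The 2 genes act at the step that starts clotting. Tissue factor, f3a, which starts clotting, stood at 5.29, 4.39 and 4.23 CPM against 1.31 and 2.86 CPM (difference 1.17, adjusted p = 0.0448). The gene f3a was not called by limma-voom, with or without quantile normalization, and its difference was 1.83 against mock A and 0.69 against mock B. The gene tfpia, for the inhibitor of tissue factor, stood at 20.0, 19.5 and 19.5 CPM against 11.8 and 9.89 CPM (difference 0.86, SE 0.19, adjusted p = 0.0236). The particle libraries of tfpia were nearly alike and above both mock libraries, within the non-injected range of 15.5 to 22.5 CPM.

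Of 31 cytokines, chemokines and prostaglandin synthases 1 was higher and 1 lower, near the 5.29% and 3.4% over all genes, with a median of -0.47. The chemokine gene ccl19b was called lower with 1 library deciding its value, at 3.03, 3.1 and 2.36 CPM with particles, 5.33 CPM in mock A and 51.2 CPM in mock B. The difference was -3.32 (adjusted p = 0.0259), -0.91 against mock A and -4.18 against mock B. Higher was tgfb1a, the TGF-beta ligand that restrains inflammation, at 11, 13.4 and 8.25 CPM against 4.35 and 5.6 CPM (difference 1.13, SE 0.27, adjusted p = 0.0271). Neither ccl19b nor tgfb1a was called by limma-voom, with or without quantile normalization. Of 19 neutrophil markers and 29 macrophage markers 0 were called, with medians of 0.32 and 0.25. Myeloperoxidase, mpx, of neutrophils stood at 9.66, 4.47 and 5.89 CPM against 2.94 and 7.16 CPM, and mpeg1.1, perforin-2 of macrophages, at 4.94, 2.15 and 1.98 CPM against 0.980 and 1.56 CPM. The groups overlapped for mpx and not for mpeg1.1, whose difference was 1.25 (SE 0.47, adjusted p = 0.105). Of 15 lymphocyte and thymus genes 1 was higher, near the 5.29% over all genes. It was rag1, the recombinase of developing lymphocytes, at 5.71, 4.73 and 2.09 CPM against 1.63 and 0.911 CPM. The gene rag1 was not called by limma-voom, with or without quantile normalization.

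Among proteases of the matrix, 2 of 25 were higher and 2 lower, against 5.29% and 3.4% over all genes. Lower besides mmp9 was mmp23bb, at 10.1, 10.6 and 10.5 CPM against 25.8 and 19.5 CPM (difference -1.13, SE 0.18, adjusted p = 0.0104). Higher were mmp24 and mmp16b, both membrane-bound proteases, the latter at 12.1, 12.3 and 8.78 CPM against 3.7 and 6.64 CPM.

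Collagen chains were higher in 8 of 38 cases and lower in 0, against 5.29% and 3.4% over all genes, with a median of 0.56 that stayed near that value against either mock library (0.59 and 0.63) and after quantile normalization (0.71, 7 higher). A microfibril chain gene, col6a1 (ENSDARG00000074908, chromosome 11), stood at 53.7, 49.4 and 39 CPM against 11 and 12.1 CPM, with 24.2, 31.1 and 41.1 CPM in non-injected embryos (difference 2.02, SE 0.35, adjusted p = 0.0126). The basement membrane chain col4a6 stood at 124, 122 and 105 CPM against 37 and 61.3 CPM (difference 1.25). The cartilage chain col9a1a stood at 30.7, 35.8 and 32.8 CPM against 14.5 and 7.55 CPM (difference 1.58), and mock B was its lowest library. The others called were col4a5, col11a1a, col11a1b, col12a1b and col18a1. Of 36 cartilage and bone genes 2 were higher, near the 5.29% over all genes. The growth factor receptor gene fgfr3, of the growth zone, stood at 11.8, 14.4 and 10.0 CPM against 2.07 and 6.64 CPM. The other, acana, the proteoglycan aggrecan, stood at 6.49, 4.56 and 4.55 CPM against 2.61 and 2.08 CPM. Among chaperones 2 of 42 were higher, also near the share over all genes. The collagen chaperone gene serpinh1a stood at 15.9, 18.2 and 19.1 CPM against 7.4 and 7.55 CPM (difference 1.24).

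Pigment cell genes were higher in 4 of 29 cases and lower in 0, against 5.29% and 3.4% over all genes, with a median of 0.56. After quantile normalization 1 of the 29 was called higher. Besides tyr these were ednrba, an endothelin receptor of pigment cells, at 2.26, 2.24 and 1.34 CPM against 0.327 and 0.521 CPM, alx4a, a homeobox gene, at 10.4, 11.3 and 7.28 CPM against 5.66 and 3.64 CPM, and kita, the receptor melanocytes need to migrate, at 8.46, 3.96 and 3.37 CPM against 0.871 and 1.82 CPM. The particle libraries of kita were spread by particle A. Vessel genes were higher in 3 of 45 cases and lower in 0, a share near the 5.29% over all genes. The peptide gene apln, of sprouting vessels, stood at 15, 15.6 and 12.9 CPM against 3.59 and 6.51 CPM (difference 1.52, SE 0.27, adjusted p = 0.0129). The tight junction gene cldn5a stood at 7.55, 9.89 and 7.55 CPM against 0.980 CPM in mock A and 4.17 CPM in mock B. The mannose receptor gene mrc1a, of scavenger endothelium, stood at 6.14, 3.18 and 4.34 CPM against 1.42 and 2.47 CPM.

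Receptors and kinases of growth signalling were called mainly in the higher direction. Of 69 genes of Ras, MAPK, PI3K and mTOR signalling 11 were higher and 2 lower, against 5.29% and 3.4% of all genes, with a median of 0.16. Besides kras and rps6ka5 the higher members included mapk8a, a stress-activated JNK kinase, at 14.8, 16.4 and 14.7 CPM against 4.9 and 6.25 CPM (difference 1.46, SE 0.23, adjusted p = 0.00995), mapk3, mapk8b, map2k4a, pik3ca, ptenb, igf1ra and rps6ka4. The catalytic PI3K subunit pik3ca stood at 15.9, 15 and 13.8 CPM against 3.27 and 7.68 CPM (difference 1.45). Lower were rheb, the GTPase that switches on mTOR, and rps6kal. After quantile normalization 8 of the 69 were higher and 1 lower. Like all lists here, the signalling lists were chosen with earlier results of these data known. Their shares called are therefore a description and add no support. Of 48 genes of TGF-beta, BMP and activin signalling 5 were higher and 0 lower, against 5.29% and 3.4% over all genes, and 3 were higher after quantile normalization. The 5 were the ligand tgfb1a and the receptors acvr1bb, acvr2ab, bmpr2b and tgfbr1b. The type II receptor acvr2ab stood at 11.5, 10.5 and 9.1 CPM against 1.52 and 4.69 CPM and the type I receptor tgfbr1b at 12.1, 9.12 and 7.77 CPM against 2.18 and 4.69 CPM. In both, mock A was the lowest library and the difference against mock A (2.76 and 2.15) exceeded that against mock B (1.14 and 1.03).

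Of 52 glucose and amino acid carriers 7 were higher and 0 lower, against 5.29% and 3.4% over all genes, with a median of 0.32. After quantile normalization 3 were called higher. The glucose carrier slc2a1b stood at 6.49, 10.1 and 4.82 CPM against 1.31 and 1.82 CPM (difference 2.18, SE 0.37, adjusted p = 0.0123). The neutral amino acid carrier slc1a5 stood at 23.4, 22.4 and 10.4 CPM against 6.10 and 6.77 CPM, with particle C nearest to mock. Lysosomal genes, which act where particles taken up by cells end, had 5 of 49 higher and 1 lower, against 5.29% and 3.4% over all genes, with a median of -0.07. The glycosidase gene gusb stood at 36.1, 25.7 and 29.8 CPM against 9.14 and 13.5 CPM (difference 1.43, SE 0.26, adjusted p = 0.0132). The proton pump accessory gene atp6ap1b stood at 20.4, 20.6 and 21.4 CPM against 9.47 and 8.98 CPM, alike within each group (difference 1.17). The membrane protein gene scarb2 stood at 44.6, 57.9 and 43.5 CPM against 18.1 and 24 CPM. The other higher members were lamp2 and neu1, and the lower one was laptm4a.

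In lipid metabolism, counts are to be read against 5.29% called higher and 3.4% called lower over all genes. Cholesterol synthesis genes had 1 of 29 higher, the lipid synthesis regulator srebf1, and a median of 0.56. For srebf1, mock A at 1.31 CPM and mock B at 8.07 CPM differed far more than the particle libraries at 28.2, 20.0 and 17 CPM (difference 2.24, 4.05 against mock A and 1.42 against mock B). Of 54 genes of yolk lipid export, fatty acid binding and lipid droplets 1 was higher and 3 lower. Lower were the fatty acid binding protein genes fabp1a, fabp3 and fabp7b. The liver-type gene fabp1a stood at 25.7, 28.8 and 31.8 CPM against 115 and 54.8 CPM (difference -1.56, SE 0.31, adjusted p = 0.0155) and in non-injected embryos at 42.8, 31.6 and 22.8 CPM. Higher was pparab, a nuclear receptor for fatty acids, at 5.15, 5.07 and 4.02 CPM against 1.74 and 2.6 CPM. Of 26 fasting and gluconeogenesis genes 1 was higher, ppargc1a, a coactivator for mitochondrial growth, at 18.1, 17.2 and 15.5 CPM against 4.25 and 10.7 CPM.

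Chemical and oxidative stress genes were called in both directions, at shares to be read against 5.29% higher and 3.4% lower over all genes. Of 47 aryl hydrocarbon receptor and cytochrome P450 genes 3 were higher, the receptor ahr1b, its partner arnt and its repressor ahrrb, and 0 lower. The partner gene arnt stood at 42, 35.9 and 29.8 CPM against 6.97 CPM in mock A and 23 CPM in mock B, and ahrrb lay near 1 CPM, at 1.13, 1.81 and 1.77 CPM against 0.544 and 0.260 CPM. The target enzyme gene cyp1a, which was not part of the rule for named genes, stood at 14.3, 9.29 and 5.14 CPM against 2.18 and 7.68 CPM, with overlapping groups (adjusted p = 0.45). Of 46 Nrf2 and oxidative stress genes 3 were lower and 0 higher, with 1 lower after quantile normalization. The ferritin gene fth1b stood at 23.3, 18.3 and 24.9 CPM against 37.9 and 38.3 CPM (difference -0.78, SE 0.16, adjusted p = 0.0174), and the peroxidase genes prdx5 and gpx4b differed by -0.60 and -0.83. In the unfolded protein list 1 of 38 was higher, calr3b, a calreticulin, and 1 lower, ppp1r15a, a phosphatase subunit that ends the integrated stress response, at 61.4, 45.8 and 54.8 CPM against 104 and 91.9 CPM. Among 44 p53 targets and caspases casp6, an executioner caspase, was higher at 7.76, 8.51 and 5.68 CPM against 0.980 and 2.34 CPM, while casp9, an initiator caspase, and bbc3, a p53 target, were lower with differences of -0.96 and -0.67.

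In the nervous system, synapse genes had 8 of 66 higher and 3 lower, against 5.29% and 3.4% over all genes, with a median of -0.01. The lower share is near that of all genes, and after quantile normalization 6 were higher and 0 lower. The vesicular glutamate transporter genes slc17a6a and slc17a6b stood at 32, 31.1 and 19.9 CPM against 5.01 and 9.63 CPM and at 29.6, 37.9 and 24.7 CPM against 5.88 and 14.2 CPM (differences 1.92 and 1.62). Lower were syn2a and syn2b, vesicle-associated synapsins, and stmn2a, an axon growth protein. Of 48 neuropeptide and hormone genes 5 were lower and 2 higher, the latter near the share over all genes. The lower members were peptide precursors, pyya, oxt, trh, tac1 and adcyap1b, and the higher ones were pcsk1 and pcsk2, the proteases that cut such precursors. The peptide YY gene pyya stood at 8.53, 9.37 and 12.9 CPM against 26.1 and 18.7 CPM (difference -1.13, SE 0.20, adjusted p = 0.0126), trh, thyrotropin-releasing hormone, at 8.25, 6.71 and 10.2 CPM against 21.4 and 14.3 CPM, and pcsk1 at 28.4, 23.1 and 14.4 CPM against 2.61 and 7.16 CPM. After quantile normalization 7 of the 48 were lower and 0 higher. Of 33 myelin and glia genes cntn2, an axonal adhesion protein, was higher and cx43, a gap junction protein, lower (differences 1.52 and -0.72). Neither was called after quantile normalization, and cx43 was not called by limma-voom without it.

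Of 43 clock and light response genes 1 was higher and 3 lower. Over all genes 5.29% were called higher and 3.4% lower, and the glucocorticoid, phototransduction and lens counts below are to be read against these shares. The repressor gene per3 stood at 71.3, 55.5 and 50.1 CPM against 11 and 27 CPM, a difference of 1.63 (SE 0.32, adjusted p = 0.0149), and both mock libraries lay below the non-injected libraries at 43.2, 64.3 and 46.6 CPM. The cryptochrome gene cry1bb and the casein kinase gene csnk1e were lower by smaller amounts (-0.59 and -0.62), as was csnk1db. After quantile normalization 1 of the 43 clock and light response genes was higher and 0 were lower. The hours at which groups were frozen are not given in the labels, and their part was not tested. Among early response genes EGR4 was lower, at 39, 29.7 and 49.9 CPM against 109 and 73.8 CPM, and klf4 higher near the limit of detection, at 2.12, 0.860 and 1.66 CPM against 0.109 and 0.391 CPM. In the glucocorticoid list 1 of 29 was lower, sgk2b, a kinase, at 6.91, 10.1 and 10.1 CPM against 27.3 and 15.8 CPM. Of 62 phototransduction genes gnb1a, a G protein subunit, was higher (difference 0.57). Of 53 lens genes 2 were higher. They were mipa, the lens water channel, at 68.2, 58.7 and 40.6 CPM against 24.9 and 19.9 CPM, and crygmxl1, a crystallin listed at 0 in both mock libraries and at 0.564, 0.516 and 0.375 CPM with particles, too low for a fold. Of 38 epidermal keratins 0 were called, with a median of 0.29, and krt4 stood at 3888, 6299 and 4149 CPM against 4129.6 and 3439.8 CPM.

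Across the 47 lists, 36 held at least 1 called gene, 14 with only higher members, 9 with only lower members and 13 with both, and 11 held none. Over all genes 8.69% were called in the main fit, and the lists held from 7 to 78 tested members. Many lists could therefore hold a called gene at the share of all genes. The number of lists expected at that share was not computed, so the 36 is a count only. For 8 lists the median had opposite signs against mock A and against mock B, lens genes most of all (-0.58 and 0.51). Lists with 0 called could hold calls with the A and B libraries alone, where 12.9% of all genes were higher and 11.6% lower. Epidermal keratins then had 11 of 38 higher. Macrophage markers had 5 of 29 higher and 1 lower, and complement genes 3 of 27 higher and 1 lower. Neutrophil markers still had 0 called.

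**Figure D5:**
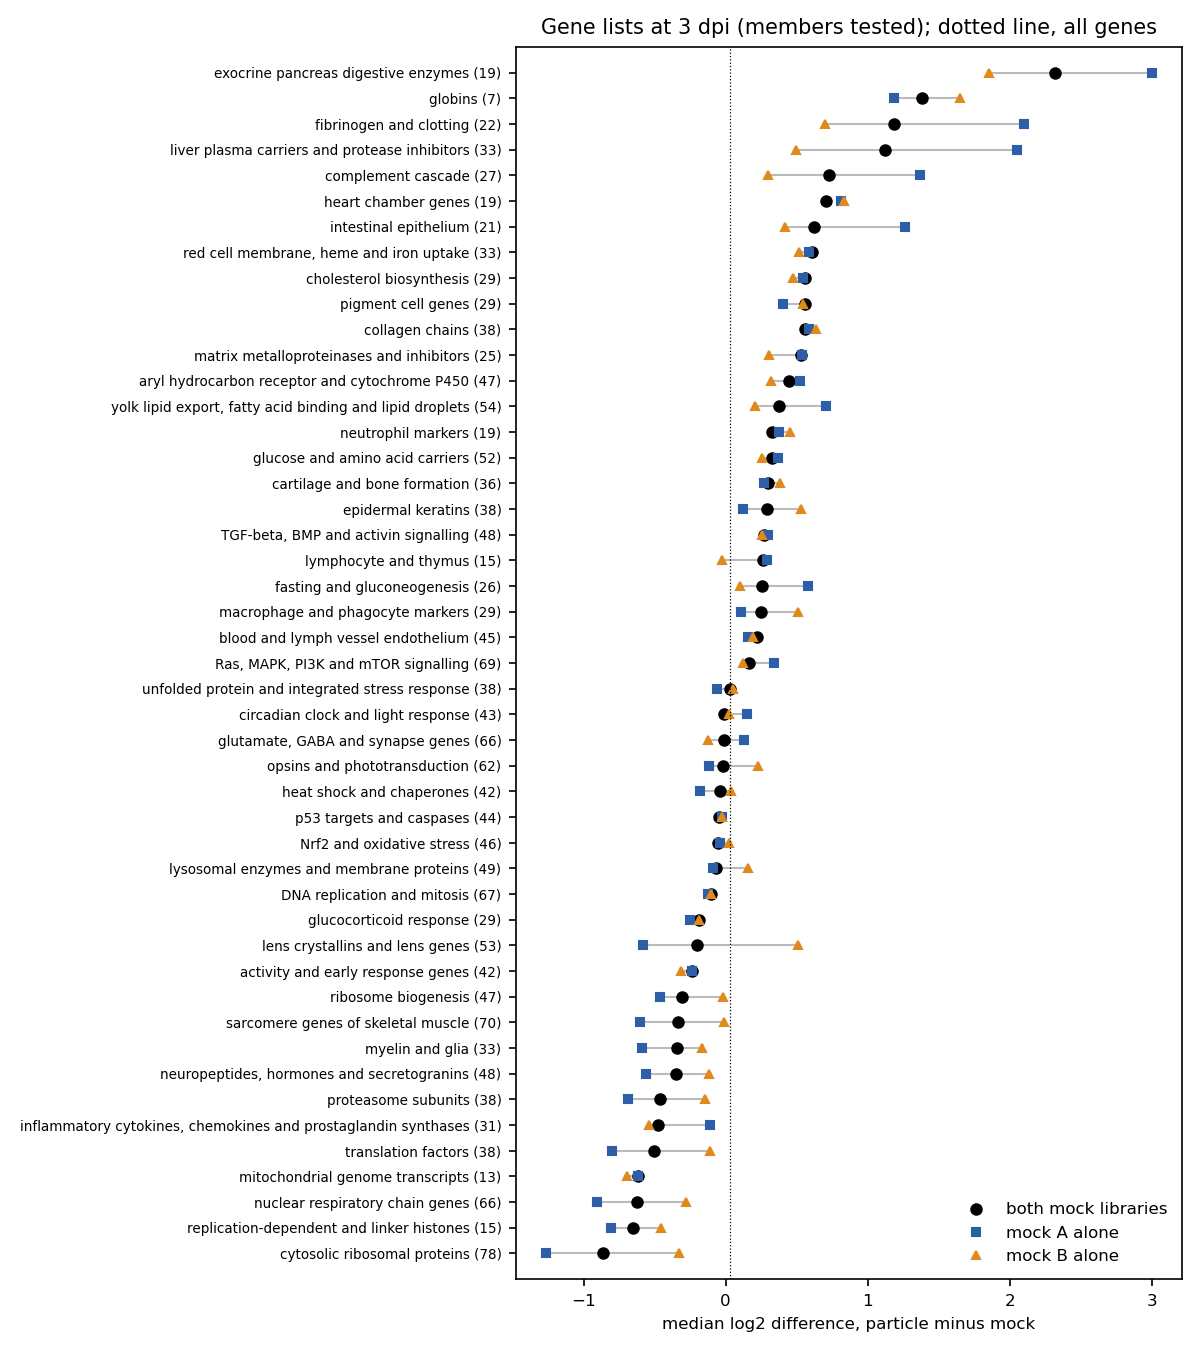
For each of 47 lists, with the number of members tested, points give the median log2 difference, particle minus mock, against both mock libraries (black), mock A alone (blue) and mock B alone (orange), and the dotted line is the median of all genes, 0.03. Ribosomal and respiratory chain lists lie farther below 0 against mock A than against mock B, while collagens lie between 0.56 and 0.63 in all 3.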

How the data were processed

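The submitters' processing notes name Bowtie2, SAMtools, DESeq and the GRCz10 build, with no versions. Not given in the sources used here are the read counter and its treatment of strand and shared reads. The authors' deposited columns were analysed as estimated counts per gene. Every gene row held a whole number, so rounding changed no value, and 2 footer lines per file were left out. Counts were tested in R 4.3.3 with edgeR 4.0.16 (filterByExpr at 10 counts and a total of 15, TMM, robust quasi-likelihood fit on the means of 6 groups over 16 libraries, Benjamini-Hochberg threshold 0.05), which kept 23623 of 31388 genes. CPM used TMM-scaled library sizes. The main fit alone was run on simulated counts with known changes, with both mock libraries drawn around the same mean. That run tested neither the other fits nor mock libraries that differ. Levels are not per length, so they are compared only within a gene.

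Members and lists were chosen with earlier results of these data known, so the shares called in the lists are descriptions and not tests. Of 1980 listed genes in 47 lists 1902 matched a row and 1838 were tested. Named genes were the 10 highest and 10 lowest called genes that averaged 5 CPM or more, with a proper symbol and groups that did not overlap, ranked by the smaller of their differences from each mock library, then genes called in all 3 tests, then up to 3 called members of each list with the smallest p, or its first tested member where none was called. Others are named as chosen after their values were seen: list members named to complete a count, cyp1a, kita, tal1, pik3ca, slc1a5, pcsk1 and the gene with no proper symbol. Some further called list members are not reported here. The fit was repeated with RLE size factors, limma-voom 3.58.1 with and without quantile normalization, DESeq2 1.42.0, no filter, fewer libraries, a replicate block, a non-robust fit and each library left out. Figures used python 3.11.15 and matplotlib 3.10.9.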

Additional observations from a re-analysis of the deposited data

How the results depend on the processing

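The number of genes called between particle and mock was 2052 over all 16 libraries. It was 3252 with DESeq2, 919 with limma-voom after quantile normalization, 8 in a fit to the 3 dpi libraries, 0 in a fit to the 5 libraries compared and 5679 with the A and B libraries alone. It ranged from 2 to 3911 with each of the 5 libraries left out in turn. Called genes kept their sign in all these fits, which reuse the same counts. Particle and mock libraries did not overlap in any of the 1249 genes called higher or the 803 called lower. Leaving libraries out therefore left the sign little room to turn, and the kept sign adds no support. RLE size factors, limma-voom, no filter and a non-robust fit stayed within 1.5 times, at 2101, 1455, 1614 and 2044. Against mock A alone 3911 genes were called, 2568 with limma-voom, 2027 after quantile normalization, 1705 in a fit to the groups compared, 8331 with the A and B libraries, and 2711 to 4135 with a particle library left out. Against mock B alone 2 genes were called, 164 with DESeq2, 6 after quantile normalization, 1 in fits to the 3 dpi libraries or the groups compared, 2478 with the A and B libraries, and 0 to 2 with a particle library left out. The cause of these changes was not tested.

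Replicate letters give only 2 possible pairs, and same-letter deviations correlated at -0.0946 and 0.0126, so the letters were not read as pairing. With a replicate block 5170 genes were called against both mock libraries, 6278 against mock A and 66 against mock B.

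Of the 108 genes named by the rule, 16 lost their call with limma-voom and 42 with limma-voom after quantile normalization. Not every such loss is stated above. Of named genes 3, none of them called, changed sign with a library left out. The log2 difference of mpx ran from -0.10 (without mock A) to 1.19, that of try from -0.11 (without particle A) to 2.32, and that of pcna from -0.56 to 0.048 (without particle A).

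With 2 mock pools, a gene that 1 pool holds high or low, such as ccl19b, can be called. Library composition and time of freezing cannot be separated from treatment here.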
